A study of Mus musculus with 10 samples.

Results

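A set of 9 genes of blood clotting and clot breakdown was followed in mouse tumors, namely F3, F10, F13a1, Thbd, Procr, Plau, Plaur, Serpinb2 and Thbs1. They are 9 of the 19938 genes with an array probe of their own, meaning a probe annotated with exactly 1 gene symbol, and each of the 9 had 1 such probe. They were named for their place in coagulation and fibrinolysis, with earlier results of these data known. The tumors were grown under the skin of C57BL/6 mice from MC38, a mouse colon carcinoma cell line, to about 40 mm2. In 5 mice (numbers 50, 58, 183, 189 and 595) the tumor received an injection of 50 µg CpG1826 (50 µL, in PBS), and tumors were taken 6 h later. CpG1826 is a short synthetic DNA whose unmethylated CpG sites stimulate TLR9, a receptor for DNA in endosomes. Tumors of 5 other mice (26, 29, 482, 592 and 661) received PBS, and the same schedule was assumed for them, since the protocol is worded alike for all samples. All mice were of one strain and carried the same tumor line, so nothing but the injected agent is labelled as different, and the labels do not state age or sex. RNA came from the whole tumor, so a change in the number of cells of a type and a change in RNA per cell cannot be told apart.

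Clotting starts when tissue factor, the product of F3, meets factor VII from plasma and activates factor X, which with its cofactor makes thrombin. Thrombin cleaves fibrinogen to fibrin, and factor XIII cross-links the fibrin. Thrombomodulin and the endothelial protein C receptor turn thrombin toward activation of protein C, an anticoagulant. Plasmin, made from plasminogen by urokinase or tissue plasminogen activator, dissolves fibrin, and serpins limit these activators. Tumor cells, macrophages, endothelium and epidermis can all express parts of this system.

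Promoter sequences from RefSeq (GRCm38.p6) are shown for 5 of the genes that rose, because 4 of them share a motif. RefSeq entries were matched for 6 of the 9 genes (F3, F10, F13a1, Procr, Plaur and Serpinb2), and the 250 bases before the annotated start were searched on both strands for 9 motifs. The AP-1 motif TGANTCA was found in F3, Procr, Plaur and Serpinb2, 4 of the 6 genes, and 6.75% of the 32851 promoter entries held it. AP-1 is a family of transcription factors of the Fos and Jun type. The motif was singled out after its matches were seen, and a match is a description of the letters only. Capitals mark the motif, and the sequences run 5′ to 3′ on the plus strand. Distances count from the start of the promoter entry, and the last printed base lies just before it, except in Procr. In Procr printing stops before the first base of the RefSeq gene, so 158 of the 250 bases are shown. The Procr start lies further on, inside that gene. For Plaur and Serpinb2 the start also lies inside the RefSeq gene, which begins at base 24460937 and base 107500892. Serpinb2 and F13a1 had 2 entries each, of which the first was searched.
F3: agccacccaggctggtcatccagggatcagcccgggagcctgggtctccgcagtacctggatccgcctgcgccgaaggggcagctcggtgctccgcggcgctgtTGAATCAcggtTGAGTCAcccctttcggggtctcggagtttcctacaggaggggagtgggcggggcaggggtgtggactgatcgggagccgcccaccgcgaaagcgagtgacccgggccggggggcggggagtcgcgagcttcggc
Procr: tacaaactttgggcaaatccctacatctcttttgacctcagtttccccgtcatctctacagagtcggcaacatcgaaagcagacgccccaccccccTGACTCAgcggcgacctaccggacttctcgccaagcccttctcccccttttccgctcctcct
Plaur: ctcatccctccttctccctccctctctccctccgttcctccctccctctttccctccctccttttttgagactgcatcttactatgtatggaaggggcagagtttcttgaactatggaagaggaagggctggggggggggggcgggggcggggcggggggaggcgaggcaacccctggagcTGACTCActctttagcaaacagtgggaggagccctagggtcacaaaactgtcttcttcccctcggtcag
Serpinb2: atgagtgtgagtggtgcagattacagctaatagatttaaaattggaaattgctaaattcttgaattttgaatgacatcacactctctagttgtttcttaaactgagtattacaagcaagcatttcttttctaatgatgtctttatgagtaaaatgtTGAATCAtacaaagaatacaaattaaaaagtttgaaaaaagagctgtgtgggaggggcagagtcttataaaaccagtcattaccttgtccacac
F10: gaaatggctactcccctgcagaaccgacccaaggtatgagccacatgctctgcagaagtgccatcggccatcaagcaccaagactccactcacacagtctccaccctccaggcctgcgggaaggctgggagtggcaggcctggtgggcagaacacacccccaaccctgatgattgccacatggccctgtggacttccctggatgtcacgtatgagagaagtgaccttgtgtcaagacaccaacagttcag
These stretches lie at chr3:121723287-121723536 for F3, chr2:155750967-155751124 for Procr, chr7:24462233-24462482 for Plaur, chr1:107511173-107511422 for Serpinb2 and chr8:13037058-13037307 for F10. F3 held the motif in 2 places, starting 146 and 135 bases before the start. In Procr it began 154 bases before the start, a distance that includes the bases not printed. In Serpinb2 it began 94 bases before the start and in Plaur 69. F10 and F13a1 had no match. The GC box GGGCGG occurred in F3 and Plaur (32.7% of entries), the TATA box TATAAA in Serpinb2 (12.4%), the ETS core GGAAGT in F10 (19.7%), the EGR motif GCGNGGGCG in Plaur (4.7%) and the C/EBP motif in Procr, Plaur and Serpinb2 (16.5%). The EGR match in Plaur overlaps GC boxes. The NF-κB motif (7.25%), the CRE TGACGTCA (1.55%) and the E box CACGTG (6.02%) were in none of the 6. The NF-κB motif was searched only as GGGRNNYYCC, where R is A or G, Y is C or T and N is any base. Sites that depart from these letters were not looked for, so the search does not show that F3 or another of the 6 lacks an NF-κB site.

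Expression was read from whole-transcript arrays as log2 values, with array medians of 6.47 to 6.53. Precision is limited by the number of arrays. Fold changes are CpG1826 over PBS from limma across all genes, adjusted for 19938 tests by the Benjamini-Hochberg method, and a gene passed at an adjusted p under 0.05. Where nothing says otherwise, n = 5 per group. The means of 8 colon epithelium markers in PBS tumors ran from 4.68 ± 0.09 for Vil1 to 6.93 ± 0.21 for Krt8 (SD, n = 5). Probes differ in brightness and detection calls were not used, so the labelled cell type was neither borne out nor contradicted by these levels. Of 13 keratinocyte markers 9 rose and 0 fell, and their mean level ran from 5.29 to 5.87 in PBS tumors and from 6.81 to 7.49 in CpG1826 tumors. Of 10 neutrophil markers 5 rose and 0 fell, with mean levels of 5.26 to 5.49 and 5.80 to 6.22. The part of these cell types in the results that follow was not tested.

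Of the 9 genes, 6 rose after CpG1826 and 0 fell, while over all genes 3.56% rose and 1.1% fell. Because the 9 genes were named with earlier results known, their share is a description and is not evidence that the pathway stands apart. Serpinb2 rose the most, 3.47-fold, followed by Procr (2.07-fold), F10 (1.91-fold), F3 (1.68-fold), Thbs1 (1.51-fold) and Plaur (1.26-fold). F13a1 was 1.56-fold higher without passing, and Thbd and Plau did not pass. In the same 6 genes all 5 CpG1826 values lay above all 5 PBS values, which 4.35% of all genes showed; 0 of the 9 lay wholly below, against 2.42% of all genes. The median log2 fold change of the 9 genes was 0.64, against -0.02 over all genes. The 95% confidence interval of Serpinb2 overlapped those of Procr and F10. The rises of these genes were not tested against each other, so their order is not settled.

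**Figure D1:**
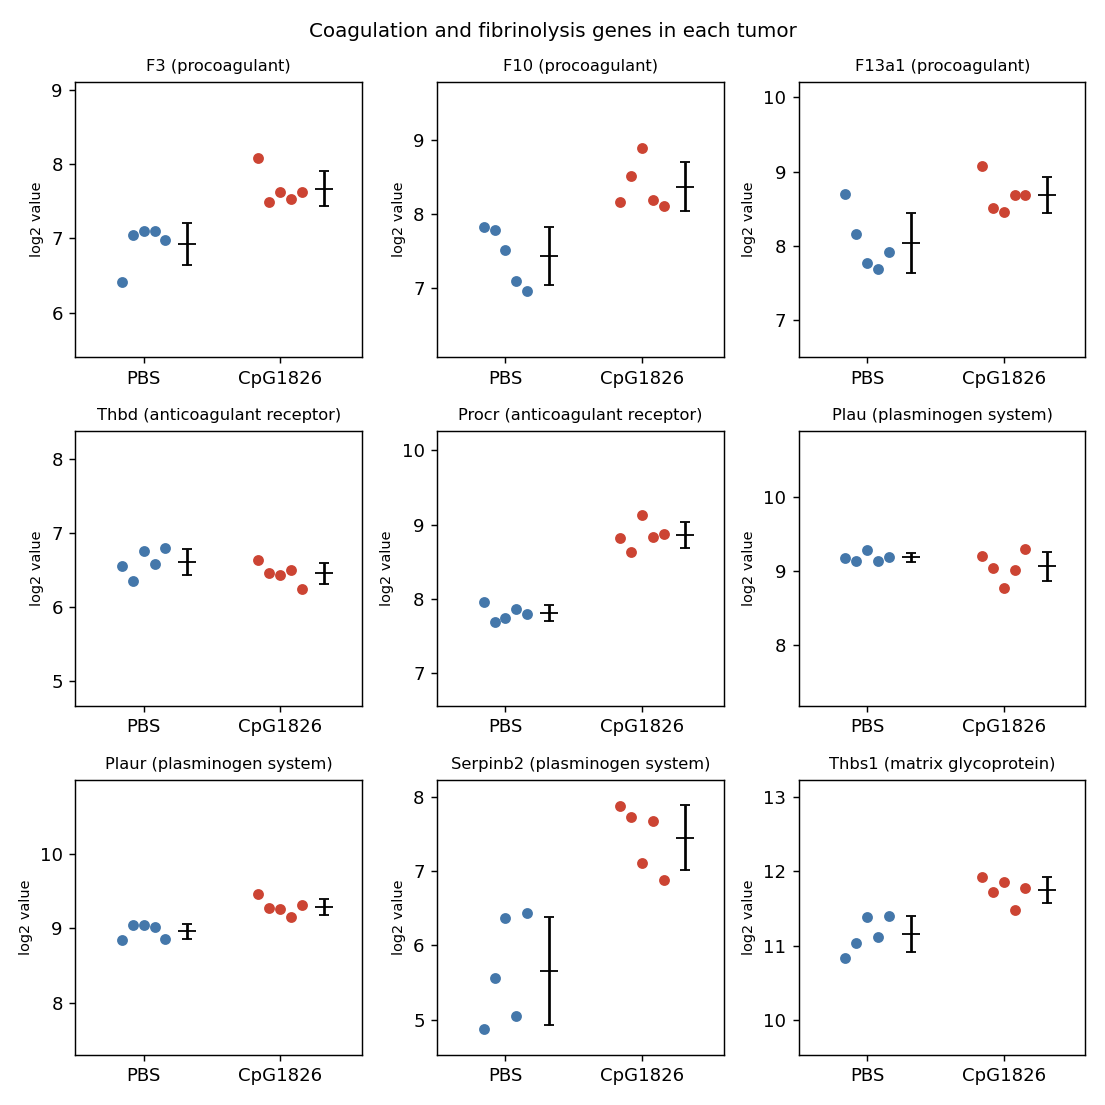
Log2 value (vertical axis, each panel spanning the same number of log2 units) of the 9 genes in 5 PBS (blue) and 5 CpG1826 (red) tumors, 1 point per tumor, with black marks for the mean and SD. The groups are apart in F3, F10, Procr, Plaur, Serpinb2 and Thbs1, and overlap in F13a1, Thbd and Plau.

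Among the procoagulant genes, F3, the cell surface receptor that starts clotting, was clearly separated between the groups. Its log2 values were 6.42, 7.04, 7.10, 7.10 and 6.97 in PBS mice 26, 29, 482, 592 and 661, and 8.08, 7.49, 7.62, 7.53 and 7.63 in CpG1826 mice 50, 58, 183, 189 and 595. PBS mouse 26 lay well below the other PBS tumors and CpG1826 mouse 50 well above the other CpG1826 tumors, and the lowest CpG1826 value was 0.39 above the highest PBS value. F3 rose by 0.75 ± 0.14 on the log2 scale (SE), 1.68-fold (95% confidence interval 1.36 to 2.07, limma adjusted p = 0.00687).

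F10 encodes factor X, the protease at which the clotting routes meet, best known as a liver product. In the same mouse order, F10 was at 7.83, 7.79, 7.51, 7.10 and 6.96 in PBS tumors and at 8.16, 8.51, 8.89, 8.20 and 8.11 in CpG1826 tumors. The PBS tumors were spread over 0.87 log2 units, mice 592 and 661 being low, and CpG1826 mouse 183 was the highest of all. F10 rose 1.91-fold (1.44 to 2.53), or by 0.93 ± 0.19 (SE, limma adjusted p = 0.00989).

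F13a1 encodes the enzymatic A subunit of factor XIII, the transglutaminase that cross-links fibrin, and is made by macrophages among other cells. Its values were 8.69, 8.16, 7.76, 7.69 and 7.91 in PBS and 9.07, 8.51, 8.45, 8.69 and 8.68 in CpG1826 tumors. PBS mouse 26 reached the CpG1826 range and the other 4 PBS tumors lay below it. The difference of 0.64 ± 0.17 (SE, 1.56-fold, 1.20 to 2.02) did not pass (limma adjusted p = 0.0545). Without PBS mouse 26 it passed at 0.80 (limma adjusted p = 0.00487; 0.00487 to 0.134 when any 1 mouse was omitted), and it also passed with median centring, both filters on low levels and array weights.

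The anticoagulant receptors parted. Procr encodes the endothelial protein C receptor, which presents protein C to the thrombin-thrombomodulin complex. Procr stood at 7.96, 7.69, 7.74, 7.86 and 7.80 in PBS tumors and at 8.82, 8.63, 9.12, 8.84 and 8.87 in CpG1826 tumors. Each group was tight, and the gap of 0.67 between the highest PBS and the lowest CpG1826 tumor was the widest of the 9 genes. Procr rose 2.07-fold (1.81 to 2.36, limma adjusted p = 1.63e-05), by 1.05 ± 0.09 on the log2 scale (SE).

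Thbd encodes thrombomodulin, the thrombin receptor that switches thrombin to protein C activation. Thbd was at 6.55, 6.35, 6.75, 6.57 and 6.79 in PBS and at 6.63, 6.46, 6.43, 6.50 and 6.25 in CpG1826 tumors. The groups overlapped over most of their range. The difference was -0.15 ± 0.09 (SE, 95% confidence interval -0.35 to 0.05, limma adjusted p = 0.504), so the interval holds no rise above 0.05 log2 units.

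In the plasminogen system the inhibitor and the receptor rose, and the protease did not pass. Serpinb2 encodes plasminogen activator inhibitor type 2, a serpin of macrophages and epidermis that is largely kept inside cells. Serpinb2 was at 4.87, 5.56, 6.37, 5.05 and 6.44 in PBS tumors and at 7.88, 7.73, 7.11, 7.68 and 6.88 in CpG1826 tumors. It varied most among the 9 genes in both groups, with SDs of 0.73 in PBS and 0.44 in CpG1826 tumors, and the lowest CpG1826 tumor, mouse 595, was 0.44 above the highest PBS tumor. The rise was 1.80 ± 0.30 on the log2 scale (SE), 3.47-fold (2.22 to 5.44, limma adjusted p = 0.00291). The mean of Serpinb2 was below the median level over all genes (6.87) in PBS tumors (5.66) and above it in CpG1826 tumors (7.45).

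Plaur encodes the urokinase receptor, which holds urokinase on the cell surface. Its values were 8.84, 9.04, 9.04, 9.01 and 8.85 in PBS and 9.46, 9.27, 9.27, 9.16 and 9.31 in CpG1826 tumors. The groups did not overlap, but the gap was 0.11 log2 units. Plaur rose by 0.33 ± 0.07 (SE), 1.26-fold (1.13 to 1.41, limma adjusted p = 0.0187), and without PBS mouse 661 the call was lost (0.31, limma adjusted p = 0.0528; 0.0147 to 0.0528 when any 1 mouse was omitted).

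Plau encodes urokinase itself. Plau was at 9.17, 9.14, 9.28, 9.14 and 9.19 in PBS and at 9.20, 9.04, 8.78, 9.01 and 9.29 in CpG1826 tumors. The PBS tumors lay within 0.15 log2 units of each other and the CpG1826 tumors spread to both sides of them, mouse 183 lowest and mouse 595 highest. The difference was -0.12 ± 0.09 (SE, 95% confidence interval -0.31 to 0.07, limma adjusted p = 0.582).

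Thbs1 encodes thrombospondin-1, a glycoprotein of platelet granules and matrix that activates latent TGF-β and restrains vessel growth. Thbs1 was at 10.84, 11.03, 11.39, 11.12 and 11.40 in PBS and at 11.93, 11.73, 11.86, 11.47 and 11.77 in CpG1826 tumors. CpG1826 mouse 189 was only 0.07 above the highest PBS tumor, and the other 4 were clear of the PBS range. Thbs1 rose by 0.59 ± 0.12 on the log2 scale (SE), 1.51-fold (1.27 to 1.80, limma adjusted p = 0.00866).

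Whether genes that act together or against each other changed unequally was tested on their log2 difference within each tumor, for 6 pairs (exact permutation test over the 10 arrays, two-sided, Benjamini-Hochberg adjustment over the 6 pairs). In 5 pairs the 5 CpG1826 tumors lay on the same side of the 5 PBS tumors, and each had p = 0.00794, the smallest that 5 against 5 can give (exact permutation test, adjusted p = 0.00952). Each of these 5 pairs joins a gene that rose with a gene that did not pass, so the tests largely restate the separate results of those genes. The zero point of such a difference depends on the probes, so only its shift between the groups is read. F3 minus Tfpi, which encodes the inhibitor of the tissue factor pathway, shifted by 0.79, from -2.64 ± 0.30 to -1.84 ± 0.36 (SD, n = 5 per group). F3 minus Thbd shifted by 0.90, from 0.32 ± 0.32 to 1.22 ± 0.20 (SD, n = 5 per group). The anticoagulant receptors shifted apart by -1.20 (Thbd minus Procr, from -1.21 ± 0.20 to -2.40 ± 0.25).

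In the plasminogen system, receptor over protease (Plaur minus Plau) shifted by 0.45, from -0.23 ± 0.11 to 0.23 ± 0.17. Inhibitor over protease (Serpinb2 minus Plau) shifted by 1.92, from -3.53 ± 0.69 to -1.61 ± 0.47. These shifts show that the genes of a pair changed unequally, not which of them changed. F10 minus F13a1 shifted by 0.29, from -0.60 ± 0.30 to -0.31 ± 0.53 (SD, n = 5 per group), within the spread of the tumors (exact permutation test, p = 0.310, adjusted p = 0.310).

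**Figure D2:**
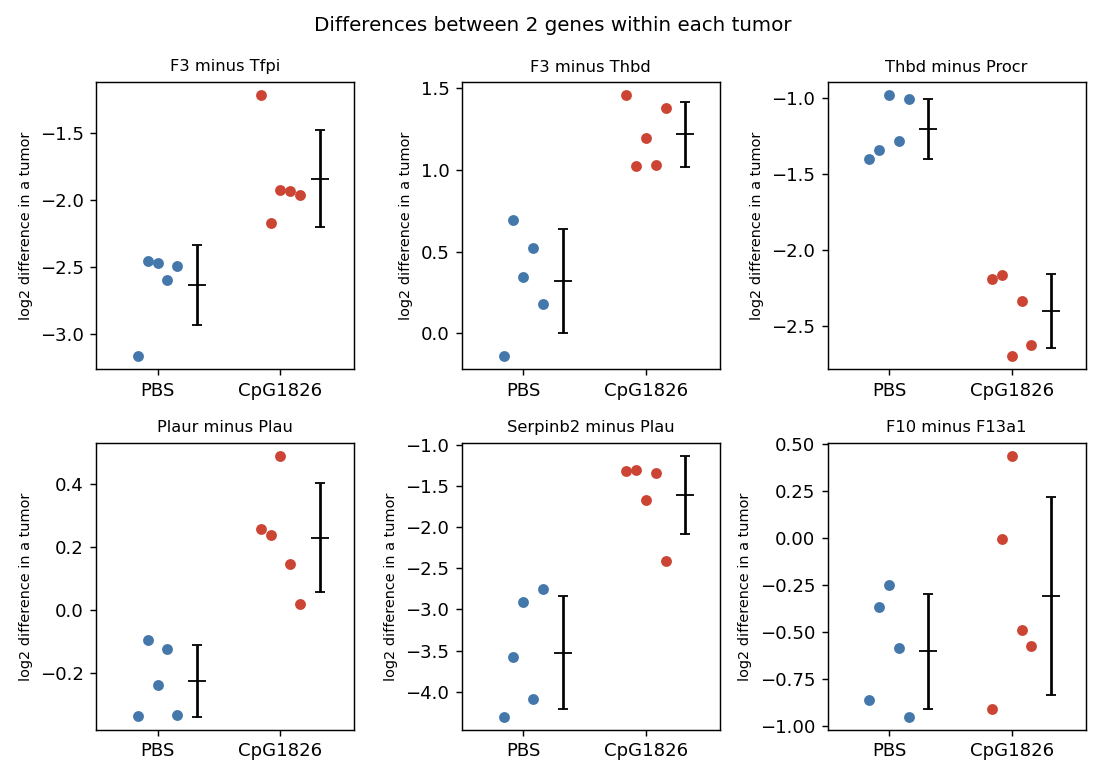
Log2 difference between 2 genes in each tumor (vertical axis), 5 PBS (blue) and 5 CpG1826 (red) tumors, with black marks for the mean and SD. The groups are apart in 5 pairs and overlap in F10 minus F13a1.

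No other gene of the pathway passed the test. Of 46 further genes of coagulation and fibrinolysis with a probe of their own, 0 passed the limma test in either direction. At an unadjusted p under 0.05, 1 was higher (Cd47, 0.24) and 4 were lower (F8, -0.29; F9, -0.19; F2r, -0.20; A2m, -0.30; named after their values were seen). Over all genes 8.13% were higher and 7.43% lower at that threshold, so the 4 lower genes are near the background share. The median log2 fold change of the 46 genes was -0.02, as over all genes, with a range of -0.30 to 0.43. Many of them were dim: 35 of the 46 remained when genes below the lower quartile of level were left out, and 21 when genes below the median level were.

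By function, none of the 4 measured initiation and contact factors passed. F7, the partner of tissue factor, differed by 0.10 ± 0.17 and F12, the contact factor, by -0.14 ± 0.14 (SE). Among 12 genes of the common pathway, fibrinogen and cofactors, Tgm2, tissue transglutaminase, differed by 0.03 ± 0.15, and Vkorc1, which recycles vitamin K, by -0.10 ± 0.07. The fibrinogen chains Fga, Fgb and Fgg differed by -0.10, -0.01 and -0.14, and none of them passed. Their PBS means of 4.93, 4.81 and 3.71 lay under the lower quartile of the mean level over all genes (5.25), so a change there may be missed.

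Of 10 inhibitors of coagulation, Tfpi averaged 9.56 ± 0.09 (SD, n = 5) with PBS and 9.51 ± 0.14 (SD, n = 5) with CpG1826, a difference of -0.05 ± 0.08 (SE, 95% confidence interval -0.21 to 0.12). Anxa5, which shields phospholipid surfaces from clotting factors, differed by 0.04 ± 0.06. The 3 measured thrombin receptors were all lower without passing, F2r by -0.20 ± 0.07 (limma adjusted p = 0.146) and F2rl3 by -0.14 ± 0.09.

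Of 7 genes for plasminogen, activators and binding proteins, Plat, the tissue plasminogen activator, differed by 0.08 ± 0.09 (SE, 95% confidence interval -0.11 to 0.26). S100a10 and Anxa2, which form a plasminogen-binding complex, differed by 0.00 ± 0.07 and 0.07 ± 0.06. Among 4 measured inhibitors of fibrinolysis, Serpinf2, the plasmin inhibitor, differed by -0.12 ± 0.09 and Serpinb6a, a relative of Serpinb2, by 0.07 ± 0.07. In the thrombospondin family, Thbs2 differed by -0.17 ± 0.08 and Cd47, a receptor of thrombospondin-1, by 0.24 ± 0.08 (limma adjusted p = 0.137). Thbs4 was 0.43 ± 0.21 higher without passing (limma adjusted p = 0.337).

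**Figure D3:**
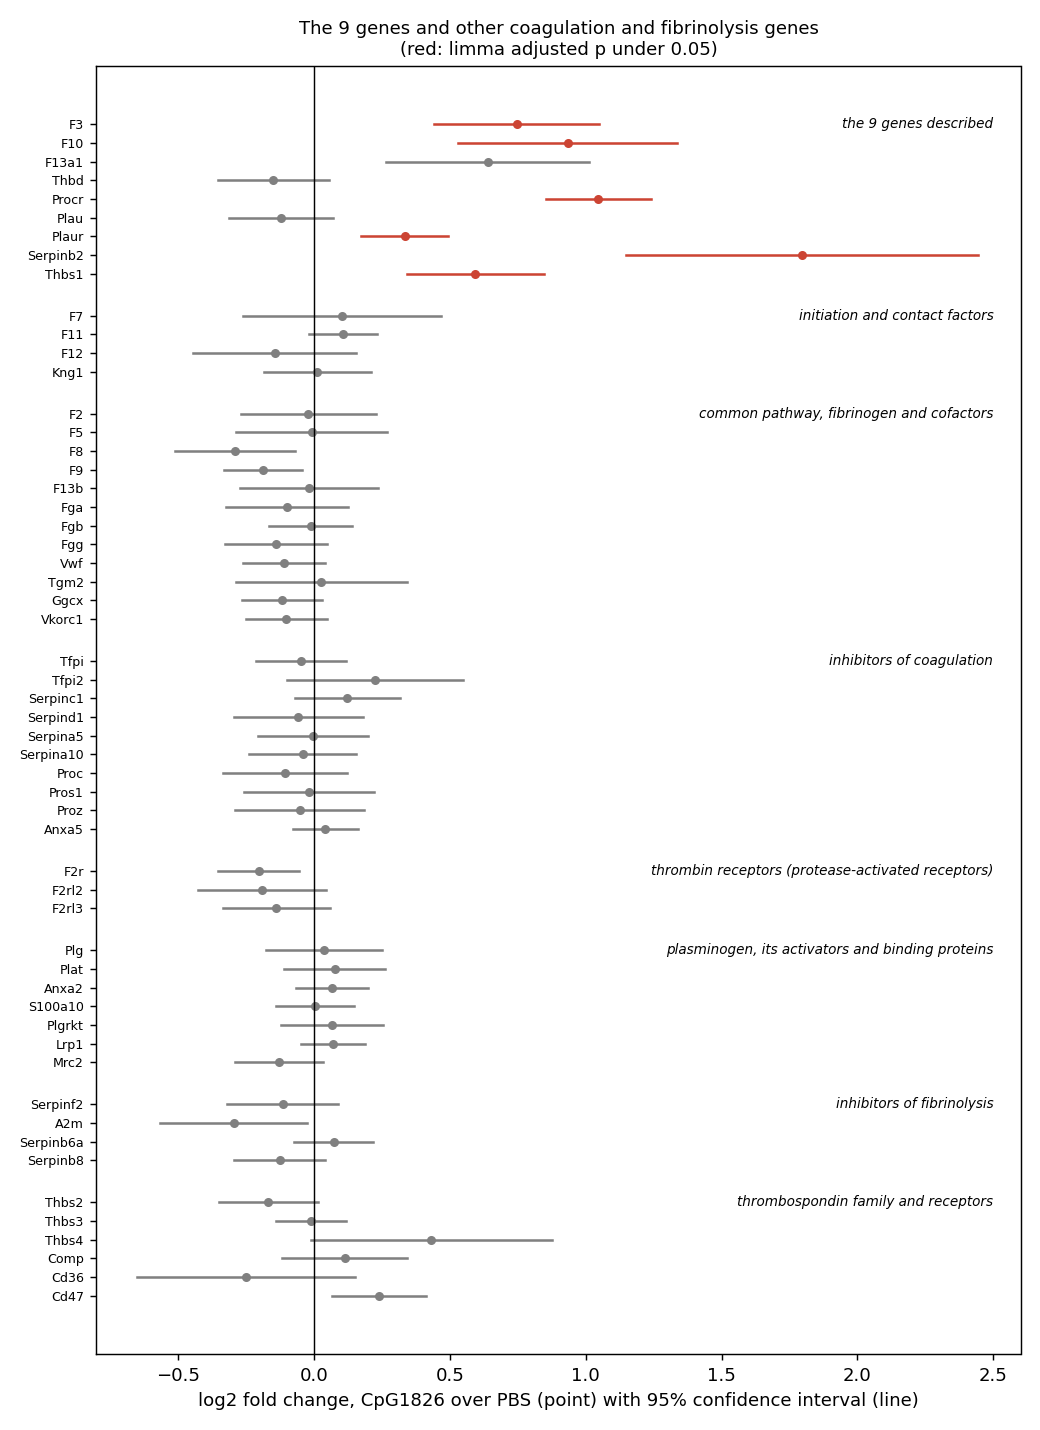
Log2 fold change of CpG1826 over PBS (horizontal axis; point) with its 95% confidence interval (line) for the 9 genes and 46 other coagulation and fibrinolysis genes, grouped by function, red where the limma adjusted p was under 0.05. Red marks 6 of the 9 genes, and 0 of the other 46.

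Beside these changes, some markers of other cell types moved with the groups. Keratinocyte markers differed most, with Krt1 and Krt5, epidermal keratins, higher by 3.06 and 2.95 on the log2 scale. Among neutrophil markers S100a8, a calcium-binding alarmin, rose by 2.13 and Cxcr2, a chemokine receptor, by 1.64, while Ly6g (0.00), Mpo (0.02), Elane (-0.03), Camp (-0.07) and Ngp (0.05) did not pass. Of 9 monocyte and macrophage markers 0 rose and 2 fell, Ccr2 by 0.61 and Csf1r, the receptor for macrophage colony-stimulating factor, by 0.46. Itgam went the other way, 0.32 higher without passing (limma adjusted p = 0.0914), with all 5 CpG1826 values above all 5 PBS values. The mean level of the 9 markers was 9.22 to 9.64 in PBS and 9.06 to 9.52 in CpG1826 tumors.

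Platelets carry thrombospondin-1 and coagulation factors, and 0 of 6 measured platelet and megakaryocyte markers passed, with mean levels of 6.02 to 6.29 and 5.99 to 6.25. Treml1 and Pf4, both of platelet granules, differed by -0.22 and 0.11. Of 9 endothelial markers Tek fell by 0.34 and 0 rose; Pecam1 was 0.37 higher without passing. Among 7 fibroblast markers 0 passed, Pdgfrb being at -0.43 and Col1a1 at -0.28. Of 8 colon epithelium markers Cdh1 (0.63) and Epcam (0.32) rose, both also expressed in other epithelia. The part of any cell type in the rise of the 6 genes was not tested.

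Tumor by tumor, the rises did not follow a common order. CpG1826 mouse 50 had the highest rise above the PBS mean in F3 (1.16), Plaur (0.50), Serpinb2 (2.22) and Thbs1 (0.77), and mouse 183 in F10 (1.45) and Procr (1.32). F13a1, which did not pass, was also highest in mouse 50 (1.03). Mouse 183 was also the lowest CpG1826 tumor for Plau (-0.41) and for F13a1 (0.41). The keratinocyte level was highest in mouse 189 (1.89 above the PBS mean) and lowest in mouse 183 (1.21), and the neutrophil level highest in mouse 50 (0.88) and lowest in mouse 58 (0.46). Mouse 50 was the lowest CpG1826 tumor for monocyte and macrophage (-0.42), fibroblast (-0.37) and endothelial markers (-0.16). Among PBS tumors, mouse 26 had the lowest F3, Plaur, Serpinb2 and Thbs1 and the highest F10, F13a1 and Procr.

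**Figure D4:**
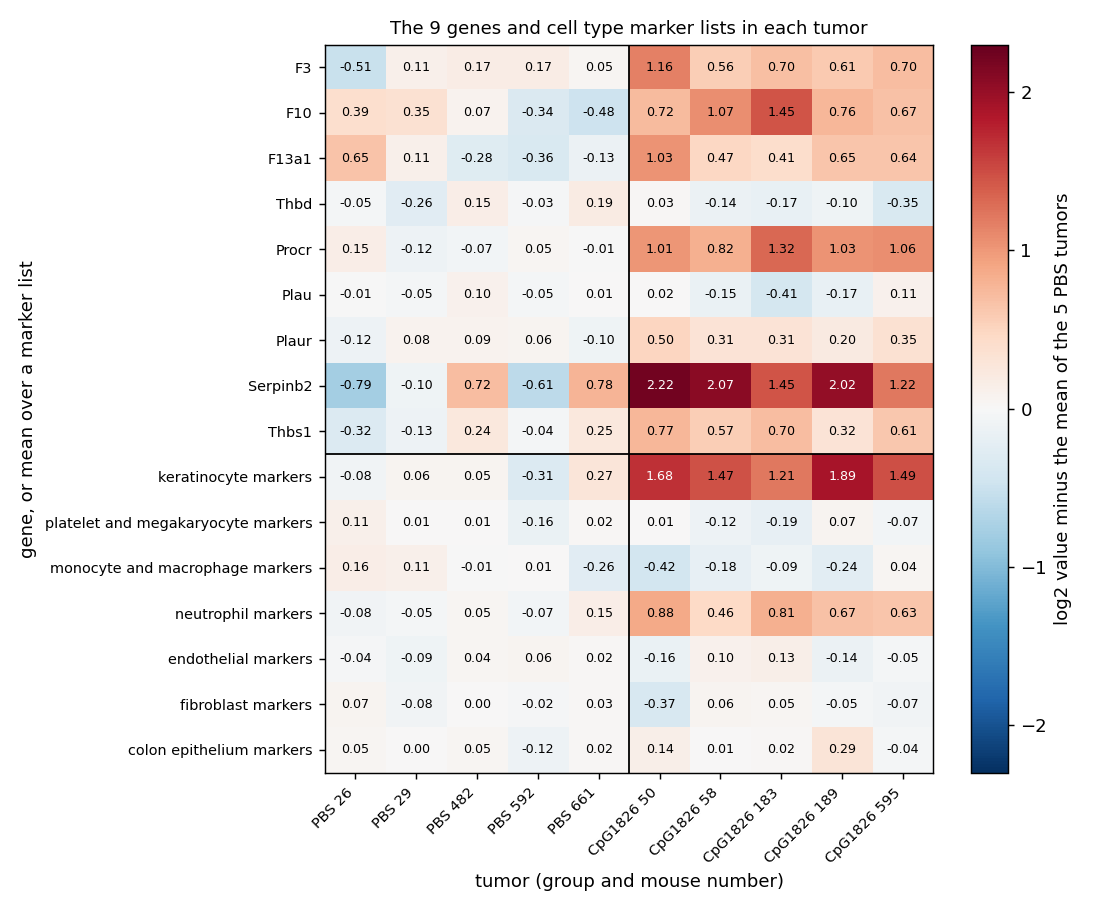
Log2 value minus the mean of the 5 PBS tumors (colour and number) for the 9 genes and for the mean of each cell type marker list (rows) in each tumor (columns). Serpinb2 is 1.22 to 2.22 above the PBS mean in the CpG1826 tumors, and keratinocyte markers are 1.21 to 1.89 above it.

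For each of the 6 genes that rose, the 3 genes with the most similar profile over the 10 arrays were found by the root mean square difference of values centred on each gene's own mean. The difference between the groups is part of the profile, so a likeness to genes that rose is built into this choice. For Serpinb2 these were Dsp, Perp and Hrnr, genes of desmosomes and the epidermal surface, at 0.41, 0.41 and 0.45 log2 units, against a spread of 1.05 in Serpinb2 itself. For F3 they were Csrnp1, Ets2 and Mt1 (0.13 each), for F10 Syk, Ikbke and Wfdc17 (0.21, 0.21 and 0.22), and for Procr Nfkbiz, Itga2 and Dusp16 (0.12, 0.12 and 0.13). For Plaur they were Ier5, Ccdc117 and Mfhas1 (0.05, 0.06 and 0.06) and for Thbs1 Furin, Rbpms and Rusc2 (0.13, 0.13 and 0.14). Perp is also on the keratinocyte marker list, and Hrnr rose by 2.02 and Dsp by 1.97 on the log2 scale.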

How the data were processed

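Total RNA of 10 tumors, 5 per group, was labelled with biotin for Affymetrix whole-transcript arrays, per the labels' protocols. The authors deposited 1 log2 value per probe and array; their range of 2.03 to 14.7 is the basis for taking the log base as 2. Of tools, the submitters' processing notes list limma and R 2.7.1 without saying what each did, and the methods of background correction, summarization and normalization are not stated in them. Normalizing arrays to each other would mask a change common to most genes.

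Of 35512 probes, 21789 had 1 gene symbol in the array's annotation table, 1621 several and 12102 none. The probe with the highest mean over the 10 arrays stood for a gene (19938 genes). limma 3.58.1 in R 4.3.3 (lmFit, eBayes, default prior, two-sided) was fitted across all genes and tested on simulated data. Mouse numbers are not shared between groups, so nothing was blocked on. Nothing in the labels gives a batch or scan date. Each mouse was taken as a replicate.

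The 9 genes, the lists of other pathway genes and markers, the pairs and the naming rule were chosen with earlier results of these data known. Named were the 9 genes, Tfpi, Plat and F2r, in each pathway list the called genes or else the 2 with the highest level, the 2 most changed of each marker list, and the 3 nearest profiles; other names were added after their values were seen. As alternatives, the values were quantile normalized again or centred on the median, and there were 2 filters on low levels, a trended and robust prior, array weights, 2 other probe rules, a stricter threshold (0.01), limma treat with a 1.5-fold minimum and leaving out each mouse.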

Additional observations from a re-analysis of the deposited data

Results flagged for a closer look

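Among 36 sets of 5 values looked at (9 genes, Tfpi, Plat, F2r and 6 pair differences in 2 groups), 4 had an end value far from the rest by Dixon's test at 95%, and chance gives about 1 in 20. F3 in PBS mouse 26 was 6.42, the lowest of its group, with the nearest other PBS tumor at 6.97. F3 in CpG1826 mouse 50 was 8.08, the highest of its group, with the next at 7.63. The same tumors stood apart in F3 minus Tfpi, PBS mouse 26 at -3.17 (nearest -2.60) and CpG1826 mouse 50 at -1.22 (nearest -1.92). These are the same F3 values seen again. Without PBS mouse 26 F3 rose by 0.62 and without CpG1826 mouse 50 by 0.64 on the log2 scale, and it passed the limma test in both fits.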

How the results depend on the processing

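The count of genes that rose among the 9 was 6, and 5 to 7 under the other settings except the limma treat test for a change above 1.5-fold, where 1 (Procr) passed. When genes under the median level were dropped, Serpinb2 and Thbd were not tested and F13a1 passed. The count was 5 to 7 when any 1 mouse was omitted, and 0 of the 9 genes fell under any setting. Among the 46 other pathway genes, 1 (Cd47) rose with array weights; no other setting called any. Plaur lost its call at an adjusted p under 0.01 and without PBS mouse 661. Tfpi, which did not pass, ranged from -0.0839 to 0.00488 when any 1 mouse was omitted, its sign changing without CpG1826 mouse 50. The 6 pair differences kept their direction and their side of the threshold after a further quantile normalization and when any 1 mouse was omitted. Centring cannot change them, since it shifts all values of an array alike. Averaging probes cannot either, since each gene had 1 probe. No paired analysis was possible because no mouse number occurs in both groups. Signal over background was not used here, so for dim probes a difference may be missed.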
